A study of Mus musculus with 6 samples.

Results

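Cyclins, cyclin-dependent kinases (CDKs) and CDK inhibitors were examined in mouse embryonic stem cells with and without Ddx5, an RNA helicase also known as p68. The genes were taken by name from the expression table: those called Ccn with 1 further letter, Cdk with a number, Cdkl, or Cdkn1 to Cdkn3. The p53 target genes Ccng1 and Cdkn1a were left out by the same rule. This gave 51 genes of 10989 in the table. The rule uses names and not expression values, but it was set with earlier results of these data known. By role they were 9 cell cycle cyclins, 7 transcription cyclins, 4 other cyclins, 4 cell cycle CDKs, 7 transcription CDKs, 5 other CDKs, 2 CDK-like kinases, 5 CDK inhibitors and 8 CDK partners or genes that only share the name.

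RNA came from cells of the MPI-II line, DDX5+/+ (wild type, WT, 2 libraries numbered as replicates) or DDX5-/- (knockout, KO, 4 libraries numbered as lines), at passages 13 to 18. Each KO line grew from a single clone after a pair of guide RNAs had directed a Cas9 nickase to the second exon of Ddx5 and G418 selection. KO and WT cells alike were kept on feeder cells in 15% serum with LIF, 1 μM of the MEK inhibitor PD0325901 and 3 μM of a GSK3 inhibitor. The labels do not say whether the WT libraries came from separate cultures, so each p-value reflects only how these 6 libraries vary, which may in part be technical.

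Values are the authors' normalized scores, in deposited units, and the sequencing depth is unknown. Log2 fold changes, KO minus WT, are on the scale log2(score / 14.7 + 1), which understates the change of low genes. They were tested with limma over all genes, and a gene passed at a Benjamini-Hochberg adjusted p below 0.05. Ddx5 itself stood at 36433 and 36436 units in WT and at 5659 to 12793 in the KO lines (log2 fold change -2.23, adjusted p = 0.00807). Both WT scores lie near the top of the table, where values recur: in every KO line Fn1 stood at 36452 and Dppa5a at 36418. Their closeness is therefore no measure of agreement between the WT libraries. All 12 embryonic stem cell markers looked for were measured in every library, none at 0, with 1 higher (Nanog) and 2 lower (Klf4 and Lin28a) in the KO lines. WT replicate 2 had 131 genes at 0, against 13 to 19 in each other library. The genes of chromosome 6 stood apart in KO line 4 (median log2 deviation 0.42, against -0.16 to -0.04 elsewhere). Those of chromosome 8 were low in WT replicate 1 and KO line 1 (-0.34 and -0.32, against 0.07 to 0.22 in the other libraries).

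A cyclin is the regulatory subunit that switches on its CDK. D-type cyclins with Cdk4 or Cdk6 act in G1, E-type cyclins with Cdk2 at the start of DNA synthesis, and A- and B-type cyclins with Cdk2 and Cdk1 through S phase and mitosis. Inhibitors of the Ink4 family (Cdkn2a, Cdkn2b, Cdkn2d) block Cdk4 and Cdk6, and those of the Cip/Kip family, such as Cdkn1b, mainly block Cdk2 complexes. A further set of cyclins and CDKs controls RNA polymerase II in place of cell division. Mouse embryonic stem cells are known for a short G1 phase and low expression of most D-type cyclins.

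Of the 51 genes, 4 were higher in the KO lines (Ccnf, Ccng2, Cdk10 and Cdk5r2), 5 were lower (Ccnd2, Ccnb2, Ccnl1, Cdk6 and Cdk17) and 42 did not pass. The share that passed, 17.6%, lay next to the 17.1% of all genes that passed, of which 9.75% were higher and 7.34% lower. Cyclins and CDKs as a set thus did not stand out from the table by number, and their median log2 fold change was 0.10, against 0.04 over all genes. In 37 of the 51 the log2 fold change was below 0.5 in size, near the share over the table (7831 of 10989 genes). The KO lines lay wholly above WT for 13 genes and wholly below for 10, and 28 genes overlapped. Of all genes, 43.7% did not overlap, 24.1% with KO above and 19.6% below, so these counts too lay near the background. Of the 9 that passed, Ccnf, Ccnd2 and Ccnl1 did so whichever of the 6 libraries was left out. The number that passed was 5 without KO line 2 and 3 without KO line 3. Over the whole table it fell too, from 1878 genes to 472 and 572.

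**Figure D1:**
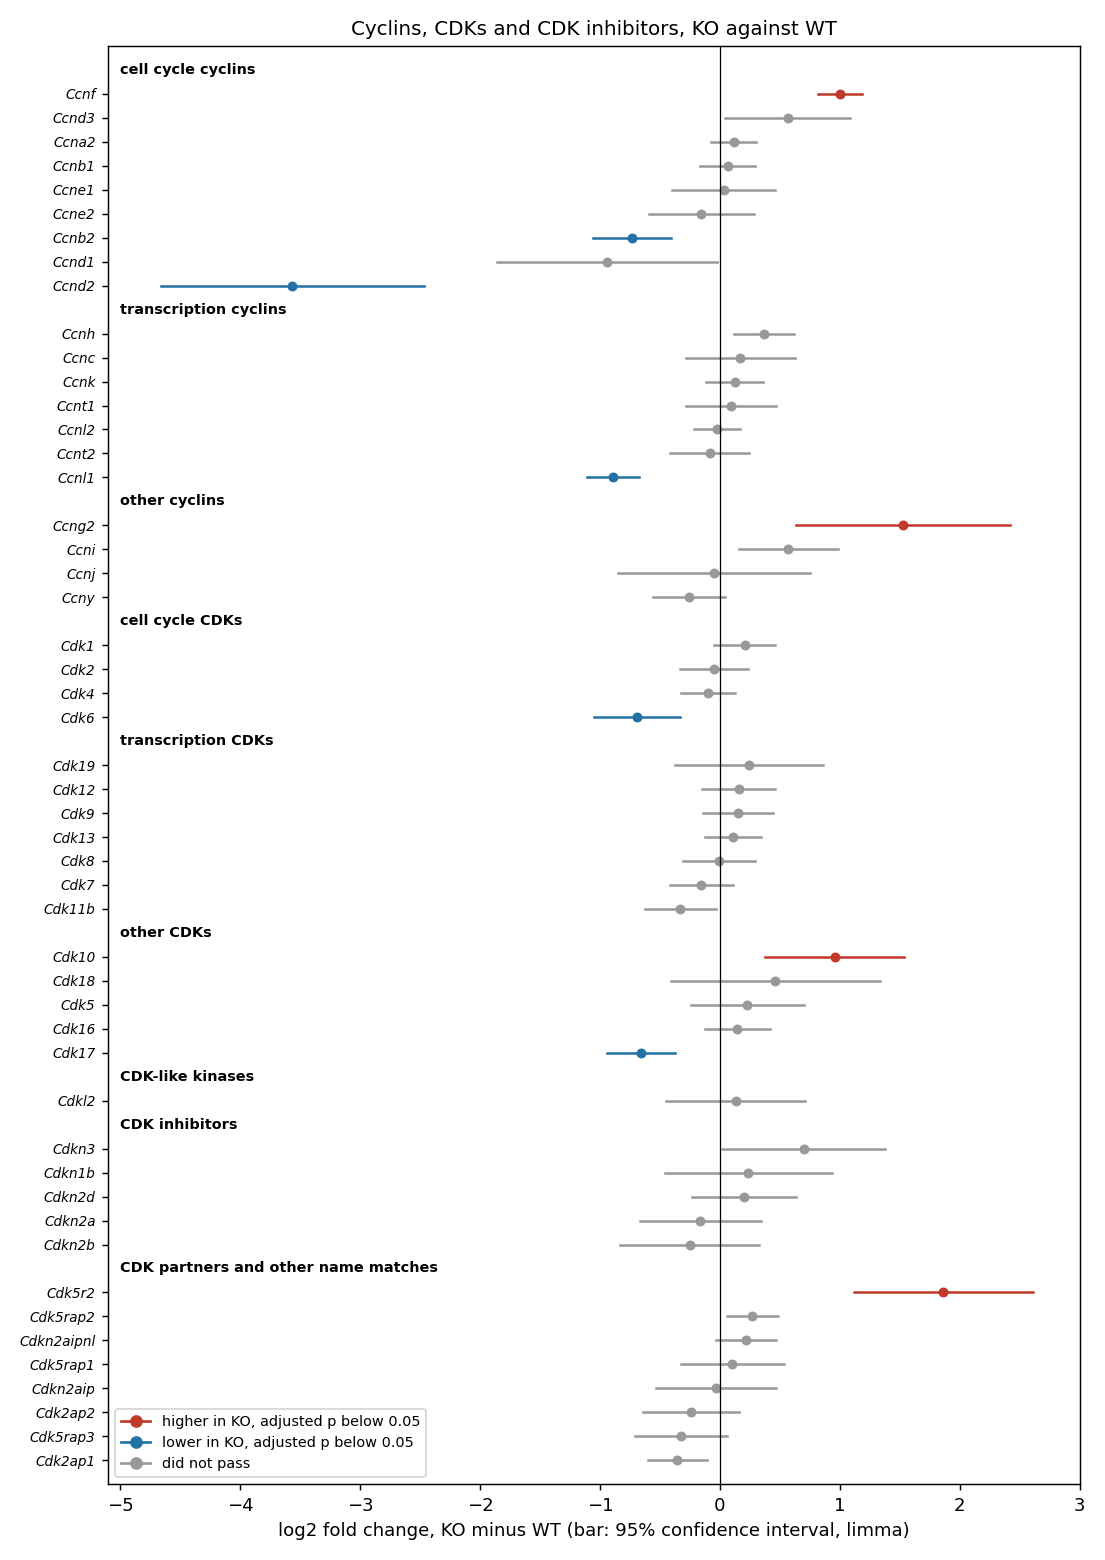
Log2 fold change of the cyclins, CDKs, inhibitors and partners (all but 1 of the 51 genes), KO minus WT, in order of role, on a linear axis of log2 units. Points are limma estimates and bars their 95% confidence intervals. The 4 genes in red and the 5 in blue passed the test, and Ccnd2 lies far to the left of all others.

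Among the D-type cyclins, Ccnd2 was almost lost from the KO lines. Ccnd2 (cyclin D2, ENSMUSG00000000184, chromosome 6, 127125162 to 127152193, build mm10) stood at 794 and 448 units in WT and at 50, 11, 46 and 56 units in KO lines 1 to 4. The KO mean was 40.8 ± 20.3 (SD, n = 4) against 621 ± 245 (SD, n = 2). Every KO line lay below both WT libraries by a wide gap, and line 2 was the lowest. This is a log2 fold change of -3.57 (SE 0.465, adjusted p = 0.00694) and -3.74 when each library was centred on the genes of its chromosome. Its exons share 368 and 372 bases with a pair of antisense genes, whose reads cannot be told apart from its own if strand was not used.

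Ccnd1 and Ccnd3, the other D-type cyclins, did not pass. Ccnd1 stood at 2110 and 3711 units in WT and at 1859, 1840, 1634 and 787 in the KO lines. The KO lines lay below WT, but the WT libraries differed from each other by more than WT replicate 1 differed from lines 1 to 3 (log2 fold change -0.94, SE 0.388, adjusted p = 0.131). Ccnd3 stood at 5570 and 3166 units in WT and at 7348, 6040, 5668 and 5940 in the KO lines, all above WT, with WT replicate 1 just under line 3. Its log2 fold change was 0.56 (SE 0.22, adjusted p = 0.115), and it rested on which WT library was kept: 0.97 without WT replicate 1 (adjusted p = 0.00972) and 0.16 without WT replicate 2 (0.497).

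Per kb of exon, Ccnd3 made up 54.4% and 30.2% of the summed D-type cyclin score in WT and 63.7% to 79.6% in the KO lines. Ccnd1 made up 38.4% and 65.9% in WT and 19.7% to 36.2% in the KO lines, so its share was lower in every KO line. Ccnd2 was the least abundant of the 3 in every library, at 7.23% and 3.98% in WT and 0.108% to 0.7% in the KO lines. The sum of the 3 overlapped between groups, at 1167 and 1196 units per kb in WT and 850 to 1237 in the KO lines. These shares are descriptions with no test. The exons of Ccnd1 and Ccnd3 share 1100 and 361 bases with a gene on the opposite strand, and those of Ccna2 and Cdk4 share 510 and 641.

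**Figure D2:**
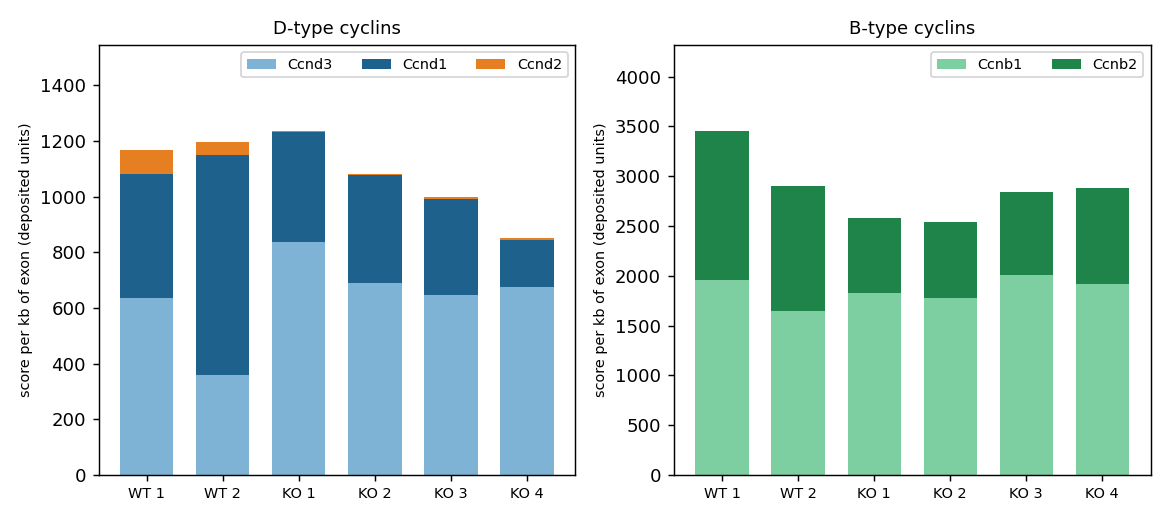
Score per kb of exon, in deposited units, of the D-type (left) and B-type (right) cyclins in each library, stacked, with 1 bar a library and no error bar. The Ccnd2 segment seen in both WT bars is barely visible in the KO bars, and the Ccnb2 segment is shorter in the KO bars.

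Fibroblast genes were also lower in the KO lines. Of 20 feeder fibroblast markers measured (24 were looked for), 18 passed as lower and none as higher, and Fn1 and Pdgfrb did not pass. The summed score of the 20 was 91203 and 58282 units in WT and 43196 to 46831 in the KO lines. Without Fn1, which lies on the top steps of the table, it was 54751 and 28427 in WT and 6744 to 10379 in the KO lines. Col6a3 alone was listed at 0, in KO line 4, and Col6a1 and Col6a2 lay at 4 to 8 units in the KO lines. Ccnd2 followed the same order in WT, higher in replicate 1, while Ccnd1 was higher in WT replicate 2. Ccnd3, whose KO lines lay above WT, followed that order too. Of the other members that passed as lower, Ccnb2 and, by little, Cdk6 (268 and 264 units) followed it, and Ccnl1 and Cdk17 did not. The part of feeder cells in the lower Ccnd2, and in the other members that fell, was not tested. In bulk RNA, fewer cells of a type and less RNA per cell cannot be told apart.

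The mitotic cyclins went in different directions. Ccnf (ENSMUSG00000072082, chromosome 17, 24222198 to 24251484), the substrate receptor of a ubiquitin ligase that is itself most abundant in G2, rose 2.01-fold. It stood at 3008 and 2908 units in WT and at 5668, 5940, 5940 and 6188 in the KO lines, with little spread in either group. The log2 fold change of 1.00 (SE 0.0765, adjusted p = 0.00201) had the smallest p-value of the 51 genes. Ccnb2 (ENSMUSG00000032218, chromosome 9, 70407692 to 70421547), a B-type cyclin that partners Cdk1, was 0.599 times its WT level in the KO lines. It stood at 2299 and 1926 units in WT and at 1158, 1154, 1274 and 1479 in the KO lines, all below WT. On the log2 scale the difference was -0.73 (SE 0.137, adjusted p = 0.0169), and leaving out KO line 2 or 3 ended the call (adjusted p = 0.0607 and 0.0564).

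Ccnb1, the other B-type cyclin in the table, did not move with Ccnb2. Ccnb1 was measured at 8246 and 6948 units in WT and at 7694, 7512, 8450 and 8092 in the KO lines, so the groups overlapped (log2 fold change 0.07, 95% interval -0.16 to 0.30, adjusted p = 0.653). Ccnb2 made up 43.4% and 43.3% of the summed B-type score per kb in WT and 29.3% to 33.5% in the KO lines. Ccna2, the S phase and G2 cyclin, stood at 4059 and 3983 units in WT and at 4147 to 4616 in the KO lines. All KO lines lay above WT, by little (log2 fold change 0.12, 95% interval -0.07 to 0.30, adjusted p = 0.334).

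Ccnf, Ccnb1, Ccnb2 and Cdk1 are known as genes transcribed mainly in G2, and their promoters are shown because these members did not move together. Each window runs from 200 bases before to 20 bases after the RefSeq start (GRCm38.p6, minus strand, positions chr17:24251390-24251609, chr9:70421535-70421754, chr13:100786467-100786686 and chr10:69352893-69353112 in the order printed). Capitals mark TTTGAA, the core of the cell cycle gene homology region (CHR), and CCAAT or its reverse complement ATTGG, the CCAAT box. The motifs do not overlap each other.
Ccnf: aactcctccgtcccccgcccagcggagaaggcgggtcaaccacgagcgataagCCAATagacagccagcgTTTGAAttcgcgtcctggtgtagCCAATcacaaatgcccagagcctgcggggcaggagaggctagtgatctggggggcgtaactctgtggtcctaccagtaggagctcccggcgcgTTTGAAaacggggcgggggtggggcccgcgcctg
Ccnb2: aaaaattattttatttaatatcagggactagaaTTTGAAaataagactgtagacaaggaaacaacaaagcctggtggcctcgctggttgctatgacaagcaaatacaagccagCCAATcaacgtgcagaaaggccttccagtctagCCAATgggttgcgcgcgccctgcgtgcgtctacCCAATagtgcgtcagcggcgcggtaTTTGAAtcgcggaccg
Ccnb1: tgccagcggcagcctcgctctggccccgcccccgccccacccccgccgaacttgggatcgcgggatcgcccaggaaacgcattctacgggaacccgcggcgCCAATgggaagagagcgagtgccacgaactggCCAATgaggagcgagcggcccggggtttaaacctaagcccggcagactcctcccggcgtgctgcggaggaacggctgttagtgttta
Cdk1: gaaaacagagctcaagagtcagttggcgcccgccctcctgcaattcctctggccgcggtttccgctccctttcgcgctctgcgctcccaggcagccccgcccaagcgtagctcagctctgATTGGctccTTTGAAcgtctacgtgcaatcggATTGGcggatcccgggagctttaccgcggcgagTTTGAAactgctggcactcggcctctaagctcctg

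Ccnf, which rose, and Ccnb2, which fell, both held the CHR letters and the CCAAT box. The CHR letters occurred at 2 positions in each of Ccnf, Ccnb2 and Cdk1 and at none in this window of Ccnb1. Only TTTGAA and its reverse complement were searched, so a variant form of the CHR would not be counted. Ccnb2 held 3 CCAAT boxes and the other genes 2 each. Of all 32851 windows of this length, 13.4% held TTTGAA, 31.0% a CCAAT box and 4.23% both, on either strand. Among the 8270 genes of the table matched by symbol, the shares were 9.98%, 39.7% and 3.85%. Among the 41 members matched by symbol, 8 held TTTGAA, 22 a CCAAT box and 5 both (Ccnb2, Ccnf, Cdk1, Cdk16 and Cdkn3). The member counts left out promoters of chromosome 18, where Ccny lies, while the shares over windows and table genes did not. A match is a description of letters and not of a bound site.

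The E-type cyclins, which partner Cdk2, were not shown to differ. Ccne1 stood at 1832 and 2874 units in WT, on either side of the KO lines at 2226, 2210, 2302 and 2665 (log2 fold change 0.03, 95% interval -0.40 to 0.46, adjusted p = 0.922). Ccne2 stood at 526 and 824 units in WT and at 524, 614, 622 and 608 in the KO lines (log2 fold change -0.15, 95% interval -0.59 to 0.28, adjusted p = 0.583). For both genes the WT libraries were farther apart than the KO lines. Without WT replicate 1, Ccne2 passed as lower (log2 fold change -0.47, adjusted p = 0.0467), and without WT replicate 2 its sign turned (0.16, adjusted p = 0.438).

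Of the cell cycle kinases, Cdk6 fell and Cdk1, Cdk2 and Cdk4 did not pass. Cdk6 (ENSMUSG00000040274, chromosome 5, 3341485 to 3531008), a partner of the D-type cyclins, stood at 268 and 264 units in WT and at 180, 162, 148 and 148 in the KO lines. All KO lines lay below WT, and each group was tight. With a log2 fold change of -0.69 (SE 0.152, adjusted p = 0.0258) it passed, but the call was lost without WT replicate 2 (adjusted p = 0.0502), KO line 2 (0.0854) or KO line 3 (0.0837). Per kb of exon, Cdk6 was a minor partner next to Cdk4 in every library, at 0.64% and 0.753% of their sum in WT and 0.406% to 0.482% in the KO lines. Its exons share 368 bases with an antisense gene.

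Cdk4, the main kinase of the D-type cyclins here, had the highest score per kb of the 51 genes in both groups (2731 units in WT and 2544 in KO, group means). It stood at 9664 and 8082 units in WT and at 8640, 8082, 8439 and 7894 in the KO lines, and KO line 2 equalled WT replicate 2 (log2 fold change -0.10, 95% interval -0.32 to 0.13). Cdk2, the partner of E- and A-type cyclins, stood at 1896 and 1520 units in WT and at 1680, 1660, 1734 and 1495 in the KO lines (log2 fold change -0.05, 95% interval -0.33 to 0.23). Cdk1, the mitotic kinase, stood at 2036 and 2546 units in WT and at 2563, 2578, 2690 and 2690 in the KO lines, just above WT replicate 2. Its log2 fold change was 0.21 (95% interval -0.05 to 0.46, adjusted p = 0.213), with 0.37 without WT replicate 2 (adjusted p = 0.0462) and 0.05 without WT replicate 1 (0.701). Ccnb1, the second highest gene per kb, and Cdk4 were thus not shown to differ, and their intervals include no change.

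None of the 5 genes named as CDK inhibitors passed in limma, and none did with any 1 KO line left out. At an unadjusted limma p below 0.05 there was 1, against 3961 of all 10989 genes. Cdkn1b (p27, chromosome 6) stood at 576 and 567 units in WT and at 576, 578 and 550 in KO lines 1 to 3, but at 1138 in KO line 4. Line 4 was thus the only library that differed, and it is the line in which the genes of chromosome 6 stood higher. Its log2 fold change came to 0.24 (SE 0.294, adjusted p = 0.595) and to 0.07 after centring on chromosomes. After that centring Cdkn1b still stood 0.40 above its mean in line 4, against -0.18 to -0.01 in the other libraries.

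The Ink4 inhibitors overlapped between groups. Cdkn2a, whose locus encodes p16 and the p53 activator Arf, stood at 548 and 372 units in WT and at 312, 429, 474 and 412 in the KO lines (log2 fold change -0.16, 95% interval -0.67 to 0.34). Cdkn2b (p15) stood at 160 and 106 units in WT and at 108, 119, 122 and 84 in the KO lines (-0.25, 95% interval -0.83 to 0.33). Cdkn2d (p19) stood at 140 and 152 units in WT and at 192, 138, 170 and 185 in the KO lines (0.20, 95% interval -0.23 to 0.64). Each of these intervals spans 0, and no Ink4 inhibitor was shown to differ. Cdkn3, a phosphatase that removes the activating phosphate from CDKs, stood at 94 and 72 units in WT and at 104, 140, 134 and 212 in the KO lines. All KO lines lay above WT, but the gene did not pass (log2 fold change 0.70, SE 0.288, adjusted p = 0.13). The inhibitors Cdkn1c and Cdkn2c were not analysed here.

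**Figure D3:**
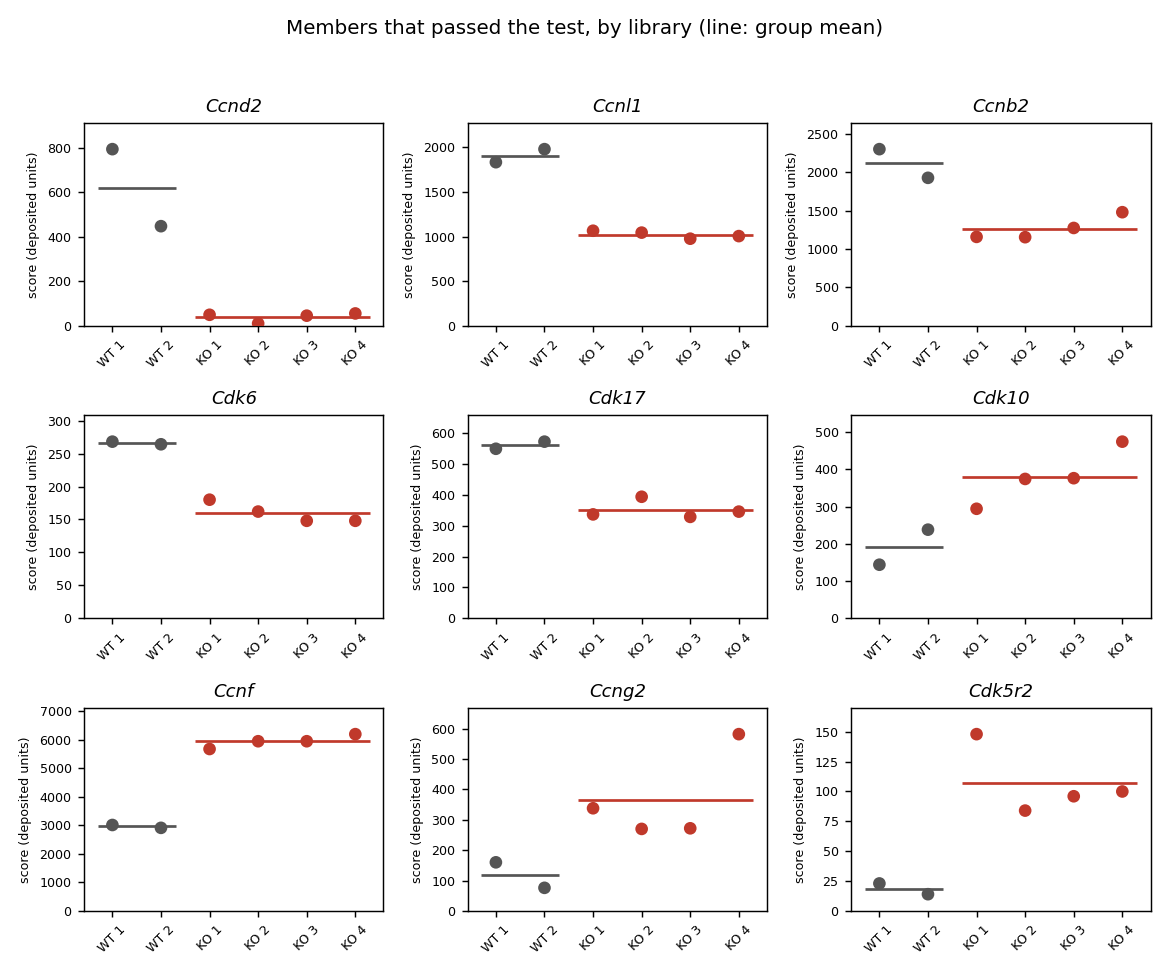
Scores in deposited units of the 9 genes that passed, in the 2 WT libraries (grey) and the 4 KO lines (red), with the group mean as a line and each axis starting at 0. The groups do not overlap in any panel, and KO line 4 lies above the other lines for Ccng2.

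Ccng2 was the member of the remaining cyclins that rose. It encodes cyclin G2, an atypical cyclin linked to withdrawal from the cell cycle (ENSMUSG00000029385, chromosome 5, 93267257 to 93276231). It stood at 160 and 76 units in WT and at 338, 270, 272 and 582 in the KO lines, a 3.10-fold higher mean. All KO lines lay above WT and line 4 was far above the other lines. In log2 units the rise was 1.52 (SE 0.378, adjusted p = 0.037). The call was lost without WT replicate 2 (adjusted p = 0.154) or without KO line 1, 2 or 3 (0.0734, 0.0739 and 0.0733). Ccny, a membrane-bound cyclin that partners Cdk14 and Cdk16, had the lowest fold change of the 4, at 784 and 930 units in WT and 624 to 757 in the KO lines (log2 fold change -0.26, adjusted p = 0.19). Ccnj, chosen after its values were seen, passed as lower only without WT replicate 1 (-0.68, adjusted p = 0.035), and its fold change ran from -0.68 to 0.58 with each library left out in turn.

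Of the 7 transcription cyclins, Ccnl1 alone passed. Cyclin L1 partners Cdk11 and takes part in splicing (ENSMUSG00000027829, chromosome 3, 65946151 to 65958249). It stood at 1832 and 1978 units in WT and at 1065, 1044, 976 and 1005 in the KO lines, 0.537 times the WT mean, with each group tight and no overlap. In log2 units the fall amounted to -0.89 (SE 0.0918, adjusted p = 0.0038). Its exons share 442 bases with an antisense gene. Its paralog Ccnl2 stood at 2169 and 2110 units in WT and at 2024 to 2158 in the KO lines, a log2 fold change of -0.03 with an interval of -0.22 to 0.16. Ccnl2 is named here after its values were seen. Ccnl1 and Ccnl2 thus differed in what the test found, but the difference between them was not tested.

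Ccnh, the cyclin of Cdk7 in the general transcription factor TFIIH, had the highest fold change of this group. It stood at 1001 and 902 units in WT and at 1276, 1263, 1276 and 1114 in the KO lines, all above WT. It did not pass (log2 fold change 0.37, SE 0.105, adjusted p = 0.0542) but did so without WT replicate 1 (adjusted p = 0.0405), without KO line 4 (0.0457) or after centring on chromosomes (0.0401). Without WT replicate 2 its log2 fold change was 0.29 (adjusted p = 0.154). The other 5 transcription cyclins had log2 fold changes from -0.09 to 0.17, and of these Ccnc passed without WT replicate 1 alone (0.52, adjusted p = 0.0276), with a range of -0.18 to 0.52 over the 6 libraries left out in turn.

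None of the 7 transcription CDKs passed in limma (1 at an unadjusted p below 0.05, against 3961 of all 10989 genes). Cdk19, a kinase of the Mediator complex, had the highest log2 fold change at 0.24, with 377 and 182 units in WT on either side of 284 to 326 in the KO lines. Cdk11b, the partner of the L-type cyclins, had the lowest at -0.33 (adjusted p = 0.108). Cdk11b stood at 2128 and 2690 units in WT and at 1774, 2092, 1940 and 1808 in the KO lines, so line 2 lay just under WT replicate 1. Without WT replicate 1 both passed, Cdk19 as higher (0.74, adjusted p = 0.0144) and Cdk11b as lower (-0.50, adjusted p = 0.0303). Without WT replicate 2 Cdk19 turned to -0.25 (adjusted p = 0.24) and Cdk11b shrank to -0.16 (0.392). Cdk7, Cdk8, Cdk9, Cdk12 and Cdk13 had log2 fold changes from -0.16 to 0.16.

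Among the other CDKs, Cdk10 rose and Cdk17 fell. Cdk10, a partner of cyclin M (ENSMUSG00000033862, chromosome 8, 123224842 to 123232250), stood at 144 and 238 units in WT and at 294, 374, 376 and 474 in the KO lines, all above WT. WT replicate 1 and KO line 1, the lowest of each group, are the libraries in which the genes of chromosome 8 were low. A log2 fold change of 0.96 (SE 0.245, adjusted p = 0.0402) resulted, and 0.76 after centring on chromosomes (adjusted p = 0.0197). The call was lost without WT replicate 1 (adjusted p = 0.107) and without KO line 2, 3 or 4 (0.105, 0.103 and 0.0719), and with no mean-variance trend (0.0503). Its exons share 417 bases with Spata2l on the opposite strand and 186 bases with Gm45842 on the same strand.

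Cdk17, a kinase of the PCTAIRE group found mainly in nondividing cells (ENSMUSG00000020015, chromosome 10, 93160875 to 93267071), stood at 548 and 571 units in WT. It stood at 336, 393, 328 and 345 in the KO lines, all below WT with little spread. Limma gave a log2 fold change of -0.66 (SE 0.12, adjusted p = 0.016), and the call was lost without KO line 3 (adjusted p = 0.06). Its exons share 316 bases with Elk3 on the opposite strand. Cdk5, Cdk16 and Cdk18 had log2 fold changes of 0.14 to 0.46 and did not pass. Cdk16, in the same PCTAIRE group as Cdk17, stood at 2156 and 2014 units in WT and 2065 to 2622 in the KO lines, with an interval of -0.13 to 0.42.

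Cdk5r2 rose most of the 51 genes in the main fit. It encodes p39, an activator of Cdk5 known from neurons (ENSMUSG00000090071, chromosome 1, 74854934 to 74857732). It stood at 23 and 14 units in WT and at 148, 84, 96 and 100 in the KO lines, a mean of 107 ± 28.2 (SD, n = 4) against 18.5 ± 6.36 (SD, n = 2). All KO lines lay far above WT, at levels that remained among the lowest of the set. This rise of 1.86 in log2 units passed (SE 0.316, adjusted p = 0.0131), and the call was lost without KO line 3 (adjusted p = 0.0511). Its rank depended on the scale, since WT was low. With a pseudocount of 5 the rise was 0.96, below the 1.18 of Ccng2, and with quantile normalization it was 1.36, below 1.41. Cdk5, the kinase that p39 activates, stood at 278 and 252 units in WT and at 365, 334, 342 and 229 in the KO lines, with line 4 below WT (log2 fold change 0.23, adjusted p = 0.448).

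The remaining name matches moved little. Cdk2ap1, a Cdk2-binding protein, had the lowest fold change of this group, at 2299 and 2690 units in WT and 2024, 1790, 1948 and 2013 in the KO lines. All KO lines lay below WT, and the gene came close to the threshold (log2 fold change -0.35, SE 0.104, adjusted p = 0.0566). It passed with trimmed-mean scaling (adjusted p = 0.0458), after centring on chromosomes (0.043) and without WT replicate 1 (0.0254), and stood at -0.24 without WT replicate 2 (0.179). The other 6 genes of this group, including Cdk5rap2, a centrosome protein, had log2 fold changes from -0.32 to 0.27 and did not pass. The CDK-like kinase Cdkl2 stood at 158 and 86 units in WT, on either side of 126 to 136 in the KO lines (0.13, adjusted p = 0.732).

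The libraries of a group did not agree equally well over these genes. Across the 51 genes, log levels correlated at r = 0.966 between the WT libraries, at 0.970 to 0.994 between KO lines and at 0.878 to 0.917 between WT and KO, and genes are not independent replicates. The WT libraries differed by over 0.5 on the log2 scale in 15 of the 51 genes (29.4%), against 30.6% of all genes. Ccnd1, Ccnd2, Ccnd3, Ccne1 and Ccne2 were among them, while Ccna2 and Ccnf were not.

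KO line 4 stood apart from the other lines in 7 of the 51 genes by over 0.5 on the log2 scale, against none to 1 in each other line. The share, 13.7%, lay near the 12.4% of all genes that did so in line 4. Cdkn1b, Ccng2, Cdk18, Ccni and Cdkn3 were higher there and Ccnd1 and Cdk5 lower (genes chosen after their values were seen). Cdk18 stood at 877 units in line 4 and at 312 to 438 in lines 1 to 3. Ccni stood at 3286 in line 4 and at 2184 to 2606 in lines 1 to 3, and at 1778 and 1636 in WT. Of the 7, Cdkn1b alone lies on chromosome 6.

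**Figure D4:**
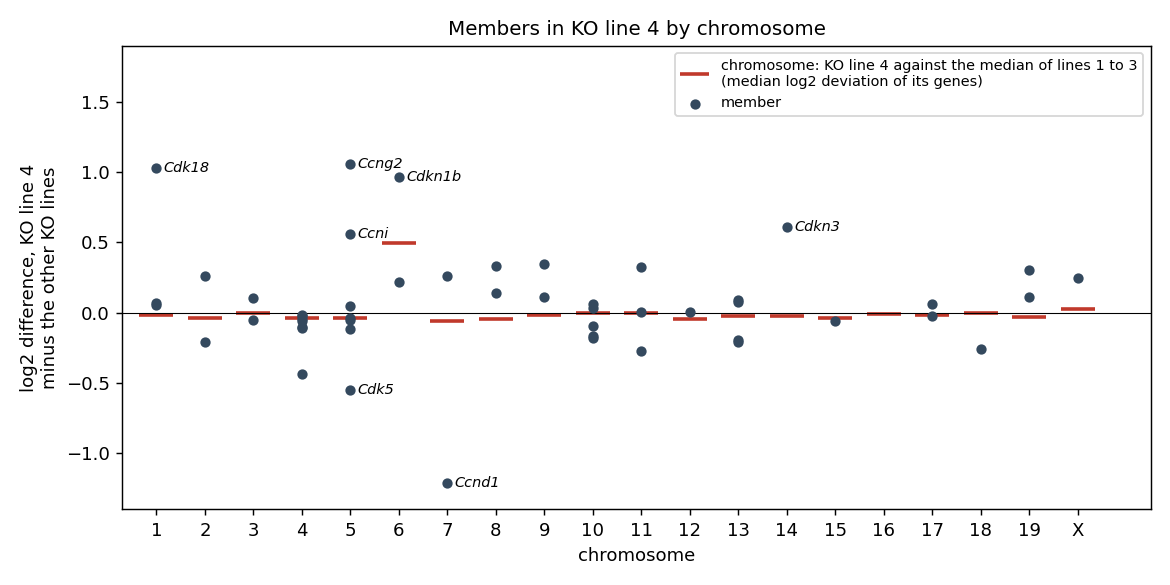
Log2 difference of KO line 4 from the median of KO lines 1 to 3 for all but 1 of the 51 genes (points) by chromosome, with the same difference of the chromosome's median deviation as a red line. Chromosome 6 as a whole lies higher, and 6 of the 7 named genes lie on other chromosomes.

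**Figure D5:**
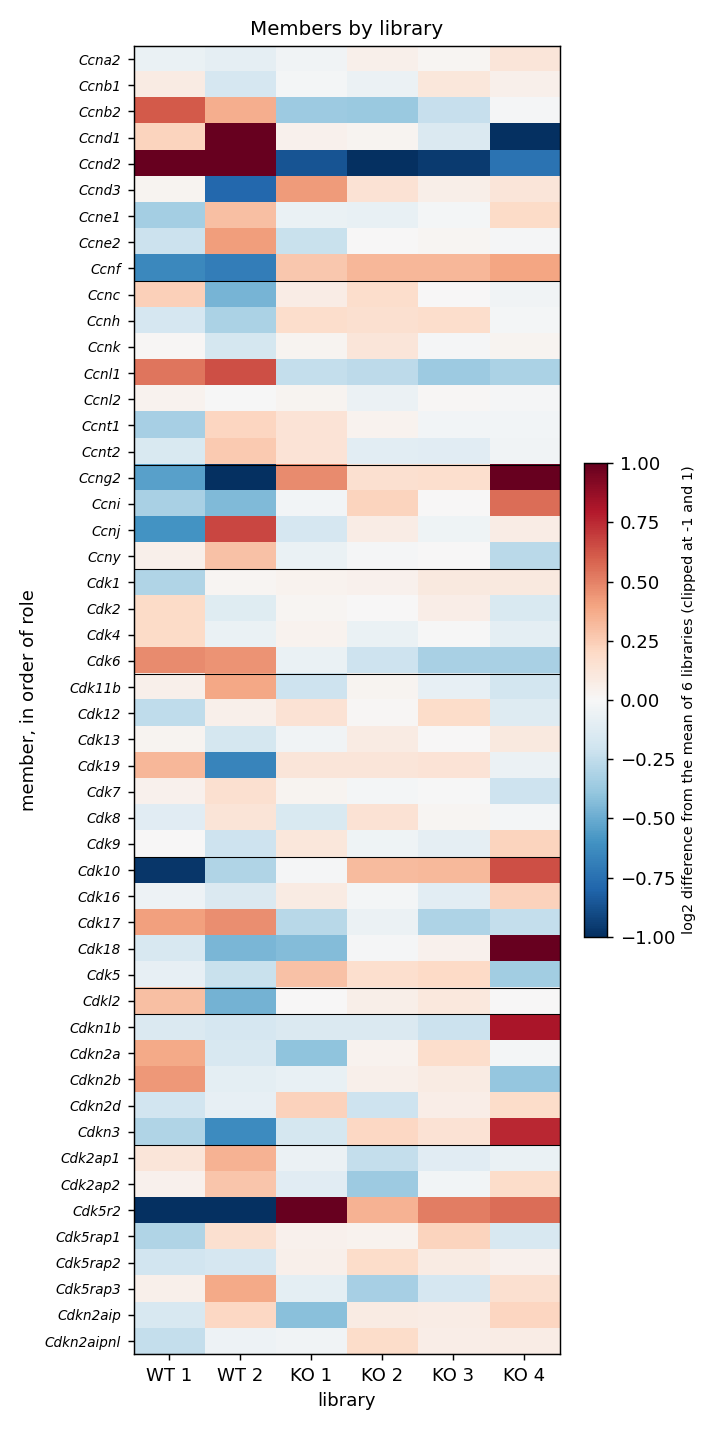
Log2 difference of all but 1 of the 51 genes in each library from its mean over the 6 libraries, with colours clipped at -1 and 1 and lines between roles. Rows such as Ccnf, Ccnl1 and Cdk17 change colour between WT and KO as a whole, while Cdkn1b and Cdk18 stand out in KO line 4 only.

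Around these genes, 3 lists of cell cycle regulators held 69 further measured genes. Of the 22 CDK switches and checkpoint kinases, 7 were higher, none lower and 15 did not pass (31.8% passed, against 17.1% of all genes), with a median log2 fold change of 0.21 against 0.04 over all genes. Aurkb, the kinase of the chromosomal passenger complex, stood at 894 and 764 units in WT and at 1382, 1376, 1314 and 1566 in the KO lines (log2 fold change 0.76, SE 0.115, adjusted p = 0.00983). Atr, the replication checkpoint kinase, Bub1, of the spindle checkpoint, and Plk1, a mitotic kinase, had log2 fold changes of 0.58, 0.55 and 0.40. The other 3 that passed were Aurka, Bub1b and Ttk, all kinases of mitosis by name, at 0.37, 0.36 and 0.33. With trimmed-mean scaling 4 of the 22 passed, near the share over the table, where 1924 of 10989 genes passed. With no mean-variance trend 4 passed (1690 genes over the table), and without KO line 4 also 4 (1445 genes). Without KO line 2 or 3, 1 of the 22 passed, again near the table share (472 of 10988 and 572 of 10987 genes). Without KO line 1, 3 passed as higher and 1 as lower.

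The RB and E2F list held 2 higher and no lower genes of 19 (10.5%, below the 17.1% of all genes), with a median of 0.07. Rb1, which restrains E2F until CDKs phosphorylate it, stood at 320 and 220 units in WT and at 579, 477, 552 and 382 in the KO lines (log2 fold change 0.85, SE 0.215, adjusted p = 0.0387). E2f1, an activator of S phase genes, stood at 904 and 838 units in WT and at 1476, 1259, 1185 and 1202 in the KO lines (0.54, adjusted p = 0.0258). Both genes had every KO line above WT. With line 2 or line 3 of the KO group left out none passed, and 1 passed as higher without KO line 1 or with no mean-variance trend. Without WT replicate 2 neither gene passed, and 1 other gene of the list passed as lower. Of the 28 genes of ubiquitin ligases that act on cyclins and inhibitors, 1 was lower and none higher (3.57%, against 17.1% of all genes), with a median of 0.08. This was Anapc15, a subunit of the anaphase-promoting complex, at 934 and 1173 units in WT and 654 to 762 in the KO lines (log2 fold change -0.51, adjusted p = 0.0386). The count of this list ran from 0 to 5 with a library left out, and without KO line 1 the 1 gene that passed was higher.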

How the data were processed

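The deposited table was named CPM by the authors, but its values are whole numbers summing to 14612799 to 14722877 per library, so they were treated as the authors' normalized score. Per the submitters' processing notes, RSEM 1.2.17, Bowtie2 2.2.0 and mm10 were used, and the normalization is not given in the sources used here. Near-equal distributions hide changes in total RNA, and no depth or counting interval can be given.

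Columns were matched to samples by name. Scores were divided by 14.7, which brings the mean library to the CPM scale, a pseudocount of 1 was added and log2 taken. Genes needed a scaled value of 1 in 2 libraries, which removed 0. KO and WT were compared over 10989 genes and 6 libraries with limma 3.58.1 (R 4.3.3, lmFit, eBayes with trend, two-sided, 4 residual degrees of freedom). The pooled variance rests mostly on the KO lines, so p-values can be too small where WT varied more. The script was tested on simulated data. Positions and exon lengths, the union of all annotated exons, came from GENCODE M21 (mm10) and promoters from RefSeq (GRCm38.p6).

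The members and lists were chosen with earlier results of these data known. Named with values were all members that passed, all cell cycle cyclins and CDKs and CDK inhibitors, the highest and lowest of each other role, and at most 4 genes that passed per list. Further genes are named as chosen later. The alternatives were 2 pseudocounts, 2 filters, 2 scalings, chromosome centring, no trend, a replicate block and each library left out. The values of 1 member are not reported here, in text or figures, though it stays in every count and fit.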

Additional observations from a re-analysis of the deposited data

Results flagged for a closer look

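Within the 4 KO lines, 4 of the 51 genes had 1 line far from the rest by Dixon's criterion (7.84%, against 7.73% of all genes, where chance gives about 1 in 20 groups). Cdkn1b in KO line 4 stood above the other lines, at 1138 units against 550 to 578. Ccnh in KO line 4 stood below them, at 1114 units against 1263 to 1276. Cdk19 in KO line 4 was likewise below, at 284 units against 324 to 326. Ccne2 in KO line 1 was below, at 524 units against 608 to 622.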

How the results depend on the processing

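With each library left out, the genes that passed numbered 472 to 3304 over the table, 3 to 17 among the 51 cyclins, CDKs and inhibitors, 0 to 2 in the RB and E2F list, 1 to 8 among the CDK switches and 0 to 5 among the ubiquitin ligases. A WT group of 1 library is assumed to vary like the KO lines. The labels do not say that the numbers shared by WT and KO pair the samples. Same-numbered deviations from the group means correlated at 0.14 and 0.10 across genes, over 2 shared numbers. With 2 WT libraries these deviations mirror each other, so the 2 values are not separate checks and cannot decide on pairing. WT replicate 1 and KO line 1 also share the low chromosome 8. A fit with the replicate block called 20 genes over the table (2 higher and 18 lower), and 0 of the 51 members and 0 of each of the 3 lists passed. In that fit KO lines 3 and 4, which share no number with a WT library, add nothing to the comparison. Its low counts thus cannot decide on the calls of the main fit. With no mean-variance trend, 1 gene of the RB and E2F list, 4 of the CDK switches and 0 of the ubiquitin ligases passed. Trimmed-mean scaling left 4 CDK switches, and chromosome centring gave 3 ubiquitin ligases. Apart from the block, the other alternatives over all libraries called 1690 to 2308 genes and 8 to 11 of the 51. The causes of these differences were not tested.

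Of 445 alternative log2 fold changes of the 30 named members, 394 kept their direction and side of the threshold, 25 no longer passed, 12 newly passed and 14 turned sign, in no case of a gene that passed in either fit. With each library left out in turn, these log2 fold changes ran from -0.29 to 0.35 for Ccne1, -0.47 to 0.16 for Ccne2, -0.057 to 0.19 for Ccnb1, -0.21 to 0.11 for Cdk2, -0.23 to 0.031 for Cdk4 and -0.25 to 0.74 for Cdk19. They ran from -0.26 to 0.52 for Cdkl2, -0.0089 to 0.33 for Cdkn1b, -0.43 to 0.11 for Cdkn2a and -0.52 to 0.015 for Cdkn2b. In all but Cdkn1b the ends came from leaving out 1 or the other WT library, and Cdkn1b turned without KO line 4. Ccne1 also turned with trimmed-mean scaling (-0.013), chromosome centring (-0.015) and the replicate block (-0.049). The stricter filter left 6 members untested, among them Ccnj, Cdk5r2, Cdkl2, Cdkn2b and Cdkn3. It cannot change a log2 fold change, only its adjusted p. The fit with no filter is the main fit again, since 0 genes were removed, so its values among the 394 could only stay the same. The depth is unknown and WT has 2 libraries, which limits every value.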
